A study of Mus musculus with 2 samples.

Results

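Mature CD4 single-positive thymocytes are the helper-lineage T cells that have finished selection in the thymus and are about to leave it. They were picked here from single-cell RNA of mouse thymus by their unique molecular identifiers (UMIs, one per captured RNA molecule) of a few genes. A cell needed a sum of at least 2 UMIs of the maturity genes Ccr7, Klf2 and S1pr1, at least 1 UMI of Cd4 and 0 UMIs of Cd8a and Cd8b1. Cells with a sum over 1 for the cycling genes Mki67, Top2a, Rrm2 and Mcm5 were left out, as were cells with a sum over 2 for regulatory T cell genes (Foxp3, Ikzf2, Tnfrsf4, Tnfrsf9) or for innate-like genes (Xcl1, Klrd1, Ccl5, Nkg7), and cells with 10 or more UMIs of the class II genes Cd74, H2-Aa and H2-Eb1. The rule found 77 cells among 3072 kept cells, 16 in the wild type library and 61 in the mutant library. The series held 1 thymocyte library from wild type mice and 1 in which both copies of NMe, a distant enhancer of the gene Myc, carried mutated GATA sites 1 and 2 (GS1+2). The labels give neither the age and sex of the mice nor how many mice were pooled. With 1 library per genotype there is no test between genotypes: every comparison is between these libraries. Intervals are given at 95%. Those on levels and ratios of genes reflect the error of counting molecules alone, those on shares the error of counting cells alone, and neither holds the spread between mice or libraries.

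Thymocytes with a T cell receptor that fits MHC class II keep the coreceptor CD4 and switch CD8 off, a choice in which the transcription factors GATA3, TOX and ThPOK (gene Zbtb7b) take part, while RUNX3 serves the CD8 lineage. As they mature in the medulla, which they reach by the chemokine receptor CCR7, the factor KLF2 turns on S1PR1, the receptor for sphingosine 1-phosphate that lets them leave for the blood. On the way they lose the thymic homing receptor CCR9 and the antigen CD24, and gain the IL-7 receptor and surface MHC class I.

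The wild type library held 1346 barcodes with 6638880 UMIs in all and the mutant library 1737 with 6364506. Their lowest barcodes were at 1781 and 1416 UMIs and their medians at 3323.5 and 2596, so the mutant library was the shallower one per cell. The libraries shared 1 barcode sequence, and none among the mature CD4 cells. The mature CD4 cells ran the other way: the wild type cells had a median depth of 2855 UMIs (1890 to 8810) and the mutant cells one of 3376 (1465 to 7846), with 55444 and 220982 UMIs in all. A level is given below in CPM, the UMIs of a gene scaled to a fixed total of UMIs over all cells of a class in a library, so that 1 UMI is a larger step among the 16 wild type cells than among the 61 mutant cells.

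The genes of the rule, which chose the cells, are described without any comparison. The maturity sum ran from 3 to 8 with a median of 4 in wild type cells and from 2 to 14 with a median of 5 in mutant cells. At the limit of 2 stood 0 wild type and 12 mutant cells, and 8 and 20 further cells that met every other condition lay just below it with a sum of 1. Ccr7 had a UMI in 13 and 41 of the cells, Klf2 in 13 and 50, and S1pr1 in 10 and 44. Cd4 was at 1 UMI in 11 wild type and 39 mutant cells, and reached at most 3 and 5 UMIs. Single cells therefore carried the coreceptor by 1 molecule in most cases. A further 10 and 18 cells were left out for 1 UMI of Cd8a or Cd8b1.

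The label was checked against CD4 lineage markers that the rule did not use, Zbtb7b, Cd40lg, Gata3 and Il7r. Their summed level was 325 CPM in wild type and 371 in mutant mature CD4 cells, from 18 and 82 UMIs. Mature CD8 cells, cut by the same maturity sum with Cd8a or Cd8b1 in place of Cd4, stood at 234 and 239, and resting double-positive cells at 96.7 and 106. The sum was thus higher than in either class in both libraries, but it was higher still in mature cells with neither coreceptor, at 427 and 407, and in positively selected cells, at 578 and 609. Of the 82 mutant UMIs 57 were of Il7r, the IL-7 receptor chain, which resting CD8 cells use as well. The wider helper lineage list, 11 genes without Cd4, did not follow the label: it summed to 2381 and 2521 CPM in mature CD4 cells, 2787 and 2816 in mature CD8 cells and 5899 and 5958 in resting double-positive cells. Zbtb7b, which encodes the factor that defines the CD4 lineage, did not follow the label in both libraries: 7 UMIs in 5 cells gave 126 CPM (50.8 to 260.1) in wild type, and 3 UMIs in 3 cells gave 13.6 CPM (2.80 to 39.7) in mutant. Mature CD8 cells were at 12.01 and 28.7 CPM of Zbtb7b, so that the wild type log2 ratio of CD4 over CD8 cells was 3.39 (1.001 to 6.70) and the mutant one -1.08 (-3.71 to 1.15). In the mutant library the label thus rests on the coreceptor genes of the rule, and not on Zbtb7b or the wider list.

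Markers of other T lineage stages were present in these cells, and those of other lineages were few. Markers of positively selected cells summed to 12 UMIs, 216 CPM, in wild type and to 113 UMIs, 511 CPM, in mutant mature CD4 cells, against 354 and 398 CPM in mature CD8 cells and 2774 and 3492 CPM in positively selected cells themselves. The 4 CD8 lineage markers outside the rule stood at 343 and 217 CPM, against 420 and 388 CPM in mature CD8 cells. Markers of resting double-positive cells had 3 and 40 UMIs, 54.1 and 181 CPM, against 222 and 244 CPM in mature CD8 cells. B cell, erythroid and gamma-delta T cell markers were at 0 UMIs in both libraries (for gamma-delta T cells the 3 that were measured), and of 7 macrophage and dendritic cell markers 6 were at 0 in wild type and 5 in mutant. Markers of early CD4-CD8- cells summed to 6 and 66 UMIs, 108 and 299 CPM, and 32 of the 66 came from 1 cell. A mutant cell with 6130 UMIs held 12 UMIs of Dntt, 11 of Myl10 and 5 of Ptcra, and another with 6094 UMIs held 8 of Arpp21 and 6 of Dntt, all genes of immature thymocytes. Regulatory T cell markers outside the rule (Il2ra, Tnfrsf18, Ctla4) had 7 and 45 UMIs, 126 and 204 CPM, against 90.1 and 125 in mature CD8 cells. The part of such cells in the values below was not tested, but the counts of genes are also given in the closing section without the 2 wild type and 7 mutant cells of over 6000 UMIs.

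Mature CD4 cells were 1.19% (0.683 to 1.93, exact Clopper-Pearson interval) of the kept wild type cells and 3.52% (2.71 to 4.50) of the mutant cells. The difference was 2.33 percentage points (1.26 to 3.41, Newcombe interval), a ratio of 2.95. Mature CD8 cells were 3.88% (2.91 to 5.05, 52 cells) and 3.41% (2.605 to 4.37, 59 cells), a difference of -0.47 points whose interval, -1.86 to 0.85, included 0. The ratio of CD4 to CD8 cells was hence 0.308 in wild type and 1.03 in mutant. Among CD4 and CD8 cells together, the wild type share of CD4 cells was 23.5% (14.1 to 35.4) and the mutant share 50.8% (41.6 to 60.1). These values describe the libraries: cells of 1 library are not replicates, and the Cd4 and Cd8 conditions of the rule set which mature cells count as CD4 cells.

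Mature cells without a UMI of either coreceptor, in which the lineage cannot be read, outnumbered the CD4 cells in both libraries. They numbered 32 in wild type, 2.39% of kept cells, and 91 in mutant, 5.26%, a difference of 2.87 points (1.51 to 4.22). Their median depths, 2609 and 2754 UMIs, were below those of the CD4 cells. Cells with UMIs of both coreceptors numbered 16 and 31, 1.19% and 1.79%. Of all 116 and 242 mature cells the CD4 cells made up 13.8% (8.09 to 21.4) and 25.2% (19.9 to 31.2), and the CD8 cells 44.8% (35.6 to 54.3) and 24.4% (19.1 to 30.3). As shares of the kept cells, the CD4 cells and the cells with neither coreceptor were the mature classes that differed by more than the counting error. As shares of the mature cells, the intervals of the libraries did not overlap for the CD8 cells. They overlapped for the CD4 cells and for the cells with neither coreceptor. Overlap of separate intervals does not mean that a difference lay within the counting error, and no interval of these differences is given here. When every cell was first thinned to 1500 UMIs, 10 wild type cells, 0.746%, and 31 mutant cells, 1.90%, met the rule, and the difference was 1.15 points (0.317 to 2.01). With the lower limit of 1781 UMIs in both libraries it was 3.20 points (1.98 to 4.51).

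**Figure D1:**
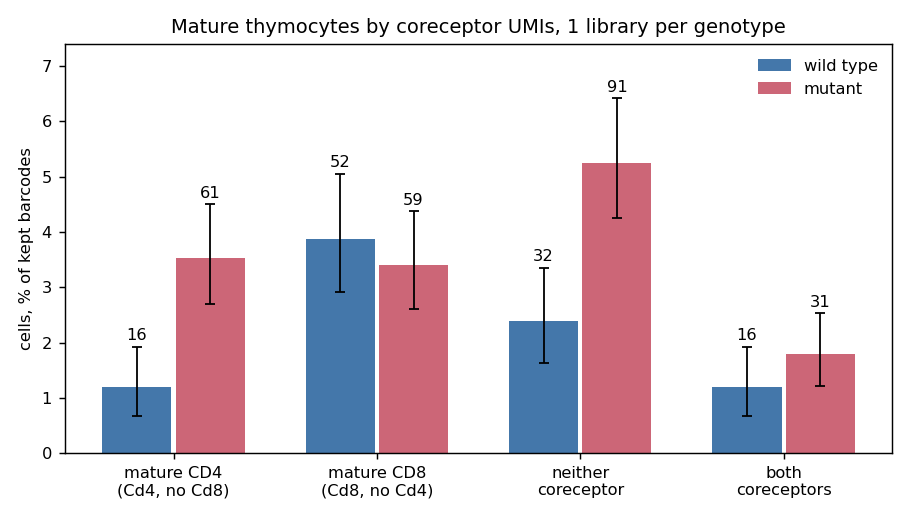
Cells of each mature class as a percentage of the kept cells of a library, split by Cd4 and Cd8a plus Cd8b1 UMIs, with 95% Clopper-Pearson intervals as bars and the number of cells above them. Mature CD4 cells were 1.19% in wild type and 3.52% in mutant, while mature CD8 cells were 3.88% and 3.41%.

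The mature CD4 cells were set against resting double-positive cells, the immature stage with both coreceptors and Rag1 or Rag2 but none of the maturity genes (175 cells in each library). The mature cells had far more Il7r, Il6ra, Itgb7 and MHC class I RNA than the immature cells, whereas Chrna9, Tctex1d1 and other genes of the double-positive stage were at or near 0. Of 4120 genes with at least 50 CPM in a class, 228 (5.53%) were higher past 2-fold in both libraries, with 5 CPM added to both sides, and 728 (17.7%) were lower. The median of all genes was -0.44 on the log2 scale in wild type and -0.58 in mutant, and 34.4% and 24.2% of them lay above 0, so a count of list members is read against these shares. The match is not exact, here and for the other classes. A list gene needed 50 CPM in the library that is read, whereas the set of all genes needed it in either library. Without ribosomal protein and mitochondrial genes in the totals, 461 genes were higher and 528 lower. Ribosomal protein genes took 403993 CPM in wild type and 396761 CPM in mutant mature CD4 cells, against 254677 and 198293 CPM in resting double-positive cells.

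Among the survival and cytokine receptors, Il7r, the IL-7 receptor chain that keeps resting T cells alive, was at 162 CPM (9 UMIs) in wild type and 258 CPM (57 UMIs) in mutant mature CD4 cells. Resting double-positive cells were at 4.84 and 5.90 CPM, giving log2 ratios of 5.07 and 5.45. Il6ra, the alpha chain of the IL-6 receptor, was at 126 and 109 CPM, from 7 and 24 UMIs. It had 1 UMI, 2.42 CPM, in wild type resting double-positive cells, or 5.71 (2.75 to 11.2) in log2, and 0 in mutant ones, so that mature CD4 cells were at least 12.3-fold higher there, against a floor of 3 UMIs over the class. Both receptors were thus at 2 UMIs or fewer in the resting double-positive cells. Bcl2, which blocks cell death, was at 325 and 448 CPM against 38.7 and 70.8, log2 ratios of 3.07 (2.01 to 4.14) and 2.66 (2.01 to 3.37). The receptor genes did not all move this way: Ifngr1, an interferon gamma receptor chain, was lower with log2 ratios of -3.40 and -2.95, and Socs1, a brake on cytokine signals, with -3.10 and -2.47. Of the 19 genes of cytokine receptors and their signals, 12 were measured in wild type, 7 higher and 5 lower, and 15 in mutant, 7 higher and 8 lower, where 34.4% and 24.2% of all genes were higher. The medians were 0.31 and -0.24.

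Genes of exit and homing went both ways. Itgb7, an integrin chain for homing to the gut, was at 198 and 186 CPM in mature CD4 cells against 9.67 and 11.8 in resting double-positive cells, log2 ratios of 4.36 and 3.97. Foxo1, the transcription factor that drives Klf2 and Il7r, was higher by 1.71 (0.18 to 3.07) and 2.08 (1.26 to 2.98). S1pr4, a second sphingosine 1-phosphate receptor, was at 108 and 176 CPM against 45.9 and 23.6. In contrast Ccr9, the receptor for the thymic chemokine CCL25, had 2 and 11 UMIs, 36.1 and 49.8 CPM, against 1066 and 823 CPM in resting double-positive cells, log2 ratios of -4.89 (-7.94 to -3.02) and -4.05 (-5.07 to -3.19). With cells thinned to 1500 UMIs, 6.25% and 8.33% of the mature CD4 cells had a Ccr9 UMI, and 74.3% and 57.8% of the resting double-positive cells, whose median depths were 2149 and 1746 UMIs. Of the exit and homing list, without the genes of the rule, 10 of 15 measured genes were higher in wild type and 6 of 16 in mutant, beside 34.4% and 24.2% of all genes.

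MHC class I genes were high in the mature CD4 cells. H2-K1, a class I heavy chain, stood at 721 CPM (515 to 982) and 1104 CPM, against 33.8 and 41.3 CPM in resting double-positive cells, log2 ratios of 4.41 (3.505 to 5.41) and 4.74 (3.97 to 5.63). Thinned to 1500 UMIs, 62.5% and 75% of the mature CD4 cells had a UMI of H2-K1, against 3.43% and 5.44% of the resting double-positive cells. H2-D1, the other classical heavy chain, was at 1046 and 1358 CPM against 181 and 168, and B2m, the light chain, at 2940 and 3032 against 537 and 1051. Heavy and light chains were hence higher in both libraries. Of 14 measured class I and peptide loading genes, 12 were higher in wild type and 13 in mutant, beside 34.4% and 24.2% of all genes. The medians were 1.58 and 1.12.

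Interferon-inducible genes were also high. Ifi27l2a, an interferon-inducible gene with no settled function in T cells, had 192 and 664 UMIs, 3463 and 3005 CPM, against 72.5 and 103 CPM in resting double-positive cells. Its log2 ratios were 5.58 (5.02 to 6.18) and 4.86 (4.37 to 5.397). Of the interferon response list, 14 of 16 measured genes were higher in wild type and 16 of 18 in mutant, beside 34.4% and 24.2% of all genes. The medians were 1.64 and 1.47. As a sum, the list stood at 5068 and 5281 CPM in mature CD4 cells and at 580.3 and 1092 CPM in resting double-positive cells.

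The highest ranked gene was Igfbp4, which encodes a secreted binding protein of insulin-like growth factors. It was at 758 CPM (42 UMIs) and 787 CPM (174 UMIs) in mature CD4 cells, against 9.67 and 5.90 CPM, log2 ratios of 6.29 (4.83 to 8.23) and 7.06 (5.19 to 10.1). Lfng, a Fringe enzyme that puts sugars on NOTCH receptors, was at 198 and 204 CPM against 2.42 and 2.95, 1 UMI each in resting double-positive cells. Ccnd2, which encodes cyclin D2, was at 613 and 819 CPM against 24.2 and 17.7, log2 ratios of 4.66 and 5.53. These genes were high in both libraries. Ctss, the lysosomal protease cathepsin S, was at 198 and 240 CPM against 4.84 CPM and 0 UMIs, at least 27.1-fold higher in the mutant library. Gimap4, an immune-associated GTPase, was at 379 and 326 CPM against 21.8 CPM and 0 UMIs, at least 36.8-fold higher in mutant. Cd7, a surface protein of T cells, was at 180.4 and 72.4 CPM with 0 UMIs in resting double-positive cells of both libraries, at least 24.9-fold and 8.18-fold higher. Of the list of mature T cell genes, 15 of 17 measured genes were higher in wild type and 14 of 17 in mutant, beside 34.4% and 24.2% of all genes. The medians were 2.65 and 2.203.

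**Figure D2:**
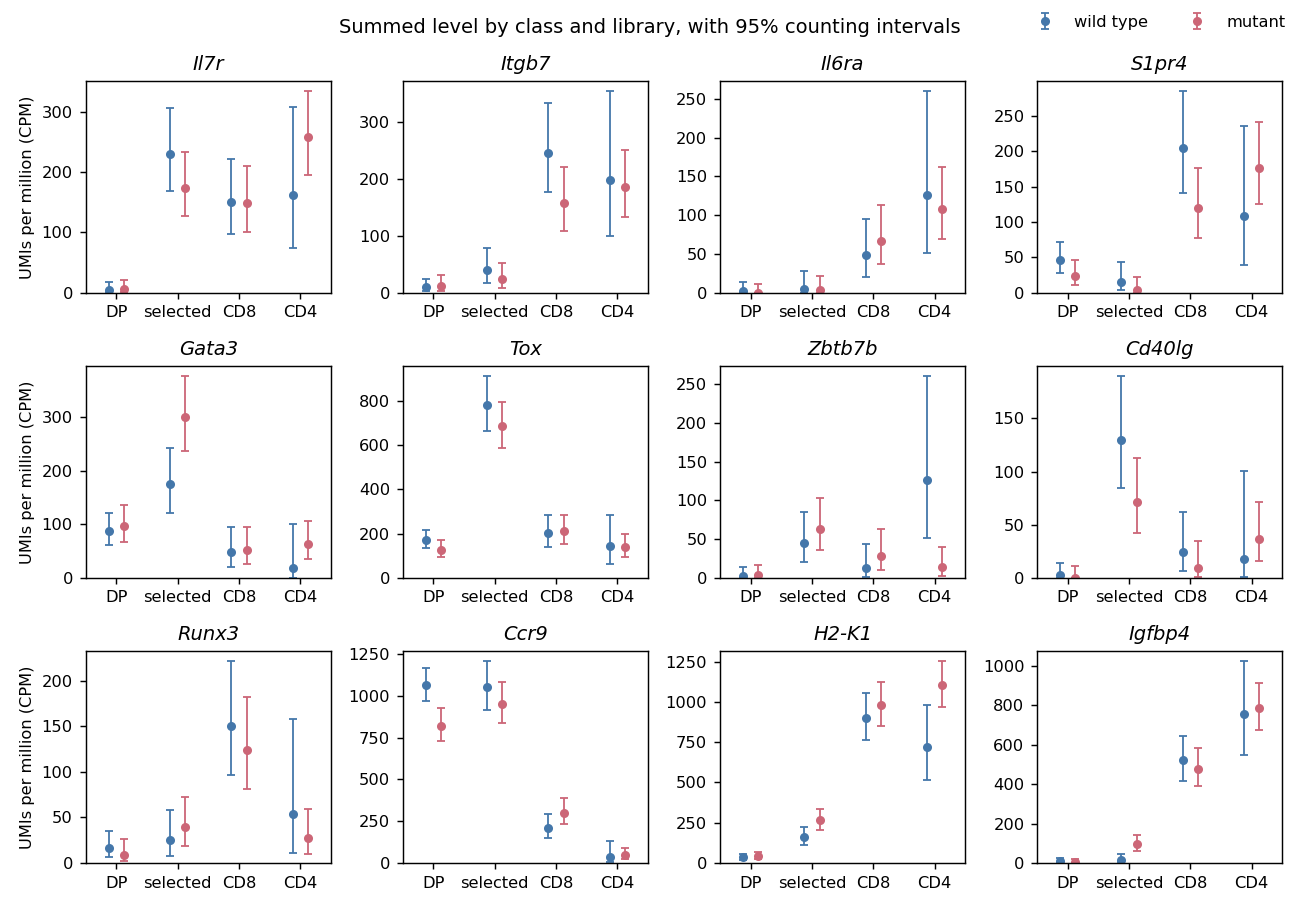
Summed level (CPM) of 12 genes in resting double-positive (DP), positively selected (selected), mature CD8 and mature CD4 cells of each library, with 95% Poisson intervals. Il6ra and Igfbp4 are highest in the mature classes, Ccr9 is lowest in mature CD4 cells, and Gata3, Tox and Cd40lg peak in positively selected cells; the 16 wild type mature CD4 cells have the widest bars.

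Several genes of the double-positive stage had few UMIs or none. Chrna9, an acetylcholine receptor subunit, Tctex1d1, a dynein light chain gene, and Prodh, a proline-degrading enzyme, all had 0 UMIs in the mature CD4 cells of both libraries. In resting double-positive cells Chrna9 was at 367.5 and 345 CPM, so that mature CD4 cells were at least 6.79-fold and at least 25.4-fold lower. Prodh was at 138 and 156 CPM there, at least 2.55-fold and 11.5-fold above the mature CD4 cells. The wild type bounds are the smaller ones because 16 cells give a higher floor. Arpp21, a regulator of mRNA stability, had 0 and 10 UMIs, 8 of them in the mutant cell with 6094 UMIs, against 994 and 1452 CPM. Ly6d, a surface antigen, had 1 and 9 UMIs against 1320.1 and 1201 CPM, log2 ratios of -6.19 (-11.5 to -3.71) and -4.88 (-6.02 to -3.94).

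Several transcription factors of the T lineage were lower as well. Tcf7, which encodes TCF1, was at 433 and 421 CPM in mature CD4 cells against 1765 and 1239 in resting double-positive cells, log2 ratios of -2.03 (-2.68 to -1.44) and -1.56 (-1.90 to -1.23). Satb1, a chromatin organiser, was at 776 and 715 CPM against 1980.1 and 2260.4, and Bcl11b, a T cell identity factor, at 469 and 584 against 1286 and 1467. All of these were lower in both libraries. Lef1, the partner of TCF1, was higher: it was at 361 and 480 CPM against 208 and 254, log2 ratios of 0.79 (0.01 to 1.51) and 0.92 (0.49 to 1.35). Of the list of TCF, RUNX, Ikaros and E protein factors, 14 of 19 genes were lower in wild type and 15 of 19 in mutant, beside 65.5% and 75.6% of all genes. Its genes higher past 2-fold in both libraries were Bach2, a repressor of effector genes, at 72.1 and 63.4 CPM against 2.42 and 5.90, and Id2, an inhibitor of E proteins, at 108 and 167 CPM against 16.9 and 17.7. Lck, the kinase bound to the coreceptors, was at 794 and 778 CPM against 1927 and 2402, and of 17 measured receptor signalling genes 14 were lower in each library, where 65.5% and 75.6% of all genes were lower. That list's median was -0.97 in wild type and -0.53 in mutant, the latter close to the median of all genes, -0.58, so the mutant values do not set the list apart.

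**Figure D3:**
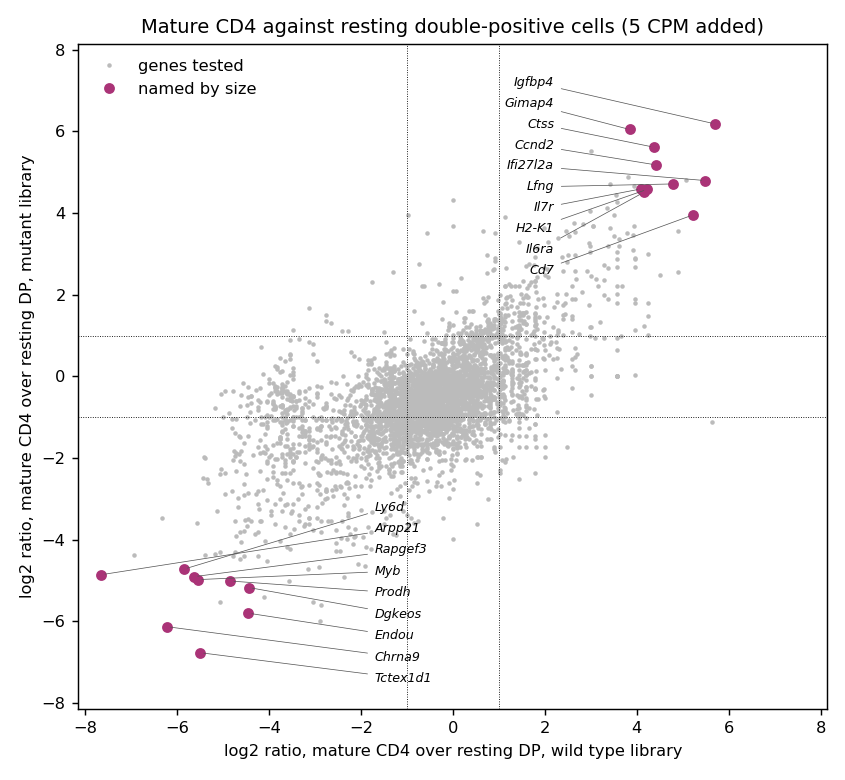
Log2 ratio of mature CD4 over resting double-positive cells, with 5 CPM added, in the wild type library (x axis) and in the mutant library (y axis), 1 point per gene of 4120 tested; dotted lines mark 2-fold and the purple points are the 10 highest and 9 of the 10 lowest ranked genes. Igfbp4 lies at the upper right and Chrna9 and Tctex1d1 at the lower left, so the named genes are far from 0 in both libraries.

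Positively selected cells, cut by a sum of at least 3 UMIs of Itm2a and Cd69 and at most 1 of the maturity genes (67 wild type and 86 mutant cells), are the stage between. Mature CD4 cells had lower levels of the lineage choice and receptor response genes than these, and higher levels of class I and mature genes. Of 3681 genes tested, 91 (2.47%) were higher past 2-fold in both libraries and 225 (6.11%) were lower. Of all genes 57.5% in wild type and 69.1% in mutant lay below 0, with medians of -0.19 and -0.31. Without ribosomal protein and mitochondrial genes in the totals the counts were 216 and 232. This comparison and the others between classes share the mature CD4 cells as one side.

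Most helper lineage genes were lower in mature CD4 cells than in positively selected cells. Tox, a factor needed for CD4 cells to form, was at 144 and 140.3 CPM in mature CD4 cells against 782 and 684 in positively selected cells, log2 ratios of -2.44 (-3.67 to -1.42) and -2.29 (-2.89 to -1.73). Gata3, which encodes a GATA factor needed for CD4 cells, had 1 and 14 UMIs, 18.0 and 63.4 CPM, against 174 and 301 CPM. The log2 ratios were -3.27 (-8.62 to -0.70) and -2.25 (-3.18 to -1.41), so Gata3 was lower in both libraries. Cd40lg, the CD40 ligand by which helper cells activate B cells, was at 18.0 and 36.2 CPM, from 1 and 8 UMIs, against 129 and 71.2 CPM. In mutant the interval of its log2 ratio, -0.98, ran from -2.39 to 0.30 and included 0. Zbtb7b was at 126 and 13.6 CPM against 44.8 and 63.3, with a wild type log2 ratio of 1.49 (-0.17 to 3.09) and a mutant one of -2.22 (-4.64 to -0.42), so it stood above the earlier stage in one library and below it in the other. Satb1 was at 776 and 715 CPM against 2719 and 2563. Of the helper lineage list without Cd4, 9 of 10 measured genes were lower in wild type and 10 of 10 in mutant, beside 57.5% and 69.1% of all genes, with medians of -2.10 and -1.45.

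Genes that mark the semi-mature state were lower too. Ccr9 was at 36.1 and 49.8 CPM against 1056 and 953, log2 ratios of -4.87 and -4.26. Cd24a, which encodes the heat-stable antigen lost by mature T cells, was without a UMI in wild type and had 7 in mutant, 31.7 CPM, against 184 and 249 CPM, at least 3.41-fold lower in wild type and a log2 ratio of -2.98 (-4.35 to -1.85) in mutant. Cd5, a surface protein set by the strength of receptor signals, was at 126 and 131 CPM against 274 and 289, log2 ratios of -1.12 (-2.50 to 0.02) and -1.14 (-1.81 to -0.50). Leaving out Itm2a and Cd69, which cut the class compared, all 10 measured genes of the semi-mature list were lower in wild type and all 8 in mutant. Of all genes 57.5% and 69.1% were lower. The medians of the list were -1.49 and -1.22. Bcl2 and Id2, outside that list, were lower too. Bcl2 had log2 ratios of -0.996 (-1.80 to -0.28) and -0.89 (-1.25 to -0.54), and Id2 had -1.86 and -1.58. Bcl2 was thus higher than in resting double-positive cells and lower than in positively selected ones.

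Among the genes higher than in positively selected cells, S1pr4 was at 108 and 176 CPM against 14.9 and 3.95, log2 ratios of 2.86 (0.63 to 5.48) and 5.48 (2.92 to 10.8). Il6ra was at 126 and 109 CPM against 4.98 and 3.95, 1 UMI in each library. Il7r was at 162 and 258 CPM against 229 and 174 and so was not in this group. Igfbp4 was at 758 and 787 CPM against 14.9 and 94.9, log2 ratios of 5.66 (4.02 to 7.998) and 3.05 (2.43 to 3.73). Fam101b had 8 and 12 UMIs in mature CD4 cells and 0 in positively selected cells, at least 9.66-fold and 4.58-fold higher, and was at 0 in resting double-positive cells as well. Ms4a4b, a tetraspan protein of T cells, had log2 ratios of 2.93 and 3.03, and H2-K1 of 2.18 and 2.06. These genes were higher in both libraries. Of the class I list 12 of 14 genes were higher in wild type and 14 of 14 in mutant, beside 42.3% and 30.8% of all genes.

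Mature CD8 cells (52 wild type and 59 mutant cells) differed from the mature CD4 cells in the fewest genes of the classes compared. Of 3388 genes tested, 39 (1.15%) were higher past 2-fold in both libraries and 41 (1.21%) were lower, and the medians of all genes were 0.04 and -0.07. Without the cells of over 6000 UMIs the counts were 84 and 65. Ccr9 led the lower ones. It was at 36.1 and 49.8 CPM in CD4 cells and at 210.2 and 302 CPM in CD8 cells, log2 ratios of -2.54 (-5.64 to -0.58) and -2.5998 (-3.67 to -1.66). Thinned to 1500 UMIs, 25% and 29.1% of the CD8 cells had a Ccr9 UMI, against 6.25% and 8.33% of the CD4 cells. Ccr9 was thus lowest in the mature CD4 cells of all classes compared. Runx3, which encodes the CD8 lineage factor, was at 54.1 CPM (3 UMIs) and 27.2 CPM (6 UMIs) against 150.1 and 125 CPM, log2 ratios of -1.47 (-3.84 to 0.24) and -2.20 (-3.77 to -0.88). The wild type interval included 0. The other CD8 markers were not all lower: Ctsw, a cathepsin of cytotoxic cells, was at 180.4 and 154 CPM against 138 and 201. Plac8, a small cysteine-rich protein gene, had 1 and 2 UMIs against 66.1 and 187 CPM, and Neurl3, an E3 ubiquitin ligase gene, had 1 and 2 UMIs against 54.1 and 57.5 CPM.

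Ass1, which encodes the enzyme argininosuccinate synthase of arginine synthesis, was higher in CD4 than in CD8 cells. It was at 307 CPM (17 UMIs) and 217 CPM (48 UMIs) against 60.1 and 91.0 CPM, log2 ratios of 2.35 (1.14 to 3.64) and 1.26 (0.46 to 2.10), intervals above 0 in both libraries. It was also above the cells with neither coreceptor, at 42.7 and 114 CPM, with log2 ratios of 2.84 (1.23 to 4.87) and 0.93 (0.26 to 1.61), and above resting double-positive cells, at 38.7 and 11.8 CPM. Itgb3, the integrin beta 3 chain, was at 144 and 76.9 CPM against 54.1 and 28.7 CPM in CD8 cells, and its log2 ratio was 1.42 in each library with intervals from -0.16 and from 0.01. Etf1, a translation release factor, was at 144 and 63.4 CPM against 30.03 and 23.9. Gbp2, an interferon-inducible GTPase, was at 36.1 and 81.5 CPM against 12.01 and 33.5, from as few as 2 UMIs. Igfbp4 was at 758 and 787 CPM against 522 and 479, with log2 ratios of 0.54 (-0.03 to 1.08) and 0.72 (0.35 to 1.09). Ifi27l2a was at 3463 and 3005 CPM against 1796 and 2213, log2 ratios of 0.95 (0.68 to 1.21) and 0.44 (0.27 to 0.62).

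S1pr4 and H2-K1 differed between CD4 and CD8 cells by less than the counting error, and Il7r differed beyond it in the mutant library alone. S1pr4 was at 108 and 176 CPM in CD4 cells and 204 and 120 CPM in CD8 cells, log2 ratios of -0.92 (-2.46 to 0.35) and 0.56 (-0.20 to 1.35). Il7r was at 162 and 258 CPM against 150.1 and 148, and its log2 ratio was 0.11 (-1.17 to 1.26) in wild type cells and 0.80 (0.14 to 1.48) in mutant. H2-K1 was at 721 and 1104 CPM against 901 and 977, log2 ratios of -0.32 (-0.86 to 0.19) and 0.18 (-0.10 to 0.45). Of 18 mature T cell genes measured, 10 were higher in CD4 cells in wild type and 9 in mutant, close to the 54.3% and 44.8% of all genes that were higher. Ms4a4b was lower in CD4 cells in both libraries, at 379 and 710.5 CPM against 655 and 910.05, with log2 ratios of -0.79 (-1.54 to -0.11) and -0.36 (-0.67 to -0.04). Of the helper lineage list without Cd4, only 1 of 6 measured genes was higher in wild type, Zbtb7b, and 2 of 7 in mutant. Of 19 TCF, RUNX, Ikaros and E protein factors, 10 of 17 measured were lower in wild type and 13 of 16 in mutant, beside 45.6% and 55.1% of all genes, with medians of -0.38 and -0.37.

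**Figure D4:**
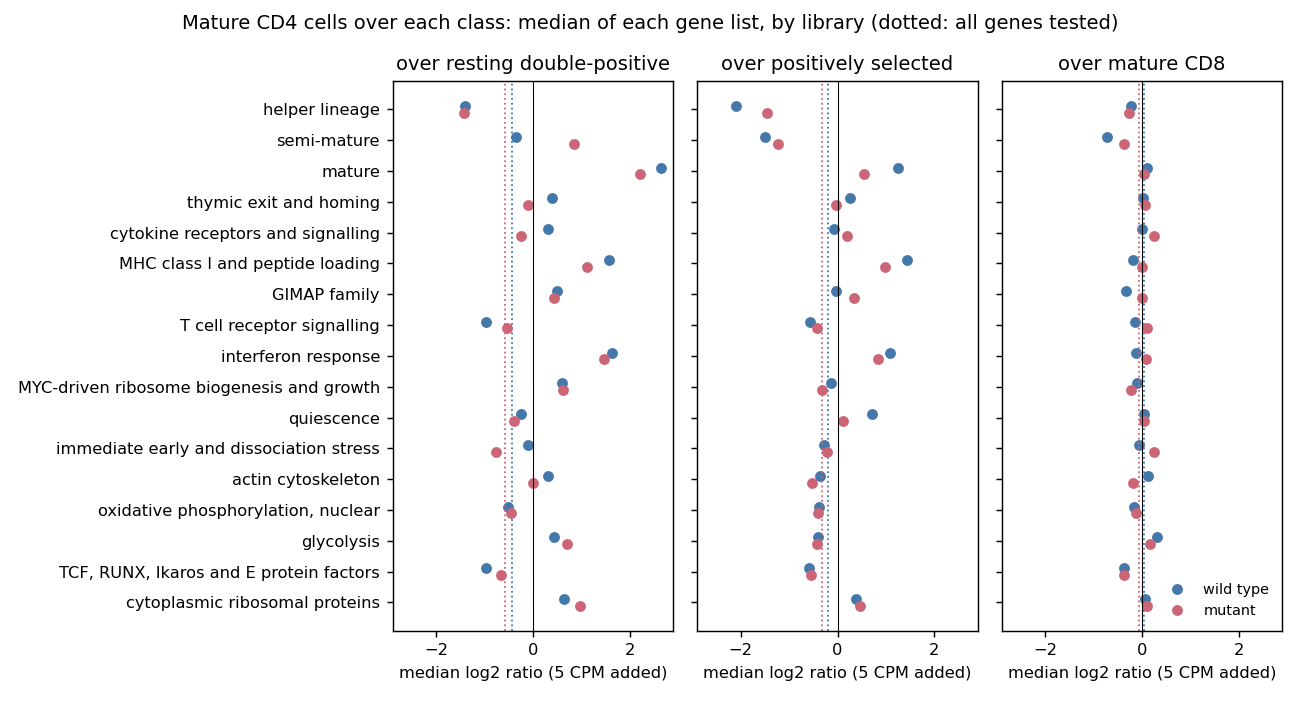
Median log2 ratio (5 CPM added) of mature CD4 cells over 3 other classes for gene lists with at least 5 measured genes, 1 point per library; dotted lines are the medians of all genes tested. Mature, class I and interferon lists lie to the right over resting double-positive and positively selected cells and close to 0 over mature CD8 cells, and the helper lineage list lies to the left over both earlier stages.

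The mature CD4 cells were also described by S1pr1, a gene of the rule: a cell without S1pr1 had to reach the maturity sum by Ccr7 and Klf2, so the split is a description and supports nothing about maturity. It gave 10 cells with and 6 without a UMI in wild type, and 44 and 17 in mutant, with median depths of 2855 and 2576 and of 3277 and 3376 UMIs. The mutant cells with 6130 and 6094 UMIs, which held the genes of immature thymocytes, were both without S1pr1. Of 4913 genes compared, 235 (4.78%) were higher past 2-fold in both libraries in S1pr1-positive cells and 313 (6.37%) were lower.

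Bcl2 was lower in the S1pr1-positive cells of both libraries. It was at 374 and 623 CPM in mutant, or -0.74 (-1.34 to -0.12) in log2, and in wild type the ratio was -2.96 (-5.02 to -1.29), from 4 and 14 UMIs. Without the cells of over 6000 UMIs the ratios were -1.18 (-1.88 to -0.46) and -2.11 (-4.17 to -0.44). For other genes the mutant interval excluded 0 with those cells and included it without them, where fewer UMIs were left. In mutant Tox was at 90.2 CPM in S1pr1-positive and 259 CPM in S1pr1-negative cells, or -1.52 (-2.65 to -0.41) in log2, and at -1.12 (-2.42 to 0.23) without them. Itm2a, a membrane protein gene raised by positive selection, was at -0.92 (-1.68 to -0.15) and -0.81 (-1.71 to 0.13) without them. Itgb7 was at 1.61 (0.25 to 3.32) in mutant and 1.26 (-0.26 to 3.23) without them. Ifi27l2a in mutant changed sign, from 0.27 (0.01 to 0.52) to -0.23 (-0.50 to 0.05). In wild type without those cells, Itgb7 was at -2.89 (-8.41 to 0.16), from 1 and 6 UMIs, and Ifi27l2a at 0.62 (0.09 to 1.17). Of Tox, Itm2a, Itgb7 and Ifi27l2a, only Tox then had the same sign in both libraries, and the wild type UMIs of Tox and Itm2a were few.

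Between the libraries, the mature CD4 cells of the mutant had more of several receptor and class I genes and less Zbtb7b and Cd52, but the 16 wild type cells gave wide intervals for most genes. Markers of less mature cells also summed higher in the mutant cells. Those of positively selected cells went from 216 to 511 CPM and those of early CD4-CD8- cells from 108 to 299 CPM. Of the 66 mutant UMIs of the early markers, 32 were in 1 cell. The semi-mature list went from 956 to 1688 CPM, but its median log2 ratio was 0.05 over 5 measured genes, 4 higher and 1 lower. Itm2a counts both in the positively selected markers and in that list, so these sums are not independent. The part of less mature cells in the differences was not tested. Of 2956 genes tested, 286 (9.68%) were higher past 2-fold in mutant and 452 (15.3%) were lower, with a median of -0.11 over all genes and 44.9% of them above 0. Scaled by median-of-ratios size factors in place of total UMIs, 455 were higher and 324 lower, with a median of 0.11, and without the 9 cells of over 6000 UMIs 492 were higher and 788 lower. The counts are those of small numbers: a gene at 3 UMIs in the wild type cells stood at 54.1 CPM. That met the minimum for a gene to be tested, whereas the mutant cells needed more UMIs to reach it. With size factors, and also with no minimum, more genes were higher than lower. No direction is therefore read from these counts, and the part of the minimum in them was not tested.

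Zbtb7b was lower in the mutant mature CD4 cells, at 13.6 CPM against 126, or -3.22 (-5.80 to -1.09) in log2. In mature CD8 cells it was at 1.26 (-1.22 to 4.60) and in positively selected cells at 0.50 (-0.77 to 1.86), from 2 and 6 UMIs and from 9 and 16 UMIs. The other classes thus lay above 0 with intervals that included 0, and the difference between classes was not tested. Under the other settings tried, Zbtb7b in mature CD4 cells ran from -5.05 to -2.12 with 5 CPM added. Itm2a was higher, with 4 UMIs, 72.1 CPM (19.7 to 185), in wild type and 63 UMIs, 285 CPM (219 to 365), in mutant, or 1.98 (0.56 to 3.90) in log2. It was at -0.37 (-1.12 to 0.38) in mature CD8 cells. When the cells were picked after thinning to 1500 UMIs, the log2 ratio of Itm2a with 5 CPM added was -0.96, in place of 1.91.

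Rgs10, a regulator of G protein signalling, was at 379 CPM in wild type and 796 CPM in mutant, or 1.07 (0.42 to 1.80) in log2, and at -0.21 (-0.58 to 0.15) in mature CD8 cells. Cd28, the main costimulatory receptor, was at 162 and 385 CPM, or 1.24 (0.25 to 2.42) in log2, and at 0.13 (-0.51 to 0.77) in CD8 cells. Both were higher in every setting tried. Cd3e, a chain of the CD3 complex, was at 379 and 634 CPM, or 0.74 (0.07 to 1.48) in log2, which turned to -0.17, with 5 CPM added, in cells thinned to 1500 UMIs. Slfn1, a schlafen gene of resting T cells, had 3 and 50 UMIs, or 2.06 (0.43 to 4.39) in log2. Ms4a4b was at 379 and 710.5 CPM, or 0.91 (0.25 to 1.64) in log2, but it was higher in the mutant library in other mature classes too. Thinned to 1500 UMIs, 48.1% and 65.5% of the mature CD8 cells had a UMI of Ms4a4b. Among the cells with neither coreceptor these shares were 43.8% and 62.9%. Of 17 measured receptor signalling genes 12 were higher in mutant, beside 44.9% of all genes, with a median of 0.32. That list summed to 6313 CPM in wild type and 7811 CPM in mutant mature CD4 cells. It was also higher in the mutant library in resting double-positive cells, at 9707 and 12199 CPM, and in positively selected cells, at 8809 and 10405. In mature CD8 cells it was at 7315 and 7438 CPM, and in cells with neither coreceptor at 7613 and 7588.

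H2-K1 was at 721 CPM in wild type and 1104 CPM in mutant, or 0.61 (0.13 to 1.13) in log2, and 12 of 14 class I genes were higher, beside 44.9% of all genes, with a median of 0.39. The class I list summed to 7142 CPM in wild type and 8539 CPM in mutant mature CD4 cells. It was higher in the mutant library in the other classes too, at 6954 and 8052 CPM in mature CD8 cells, 2764 and 3974 CPM in positively selected cells and 2176 and 3063 CPM in resting double-positive cells. B2m, at 2940 and 3032 CPM, had a log2 ratio of 0.04 (-0.20 to 0.30), and Tap1, a peptide transporter chain, was lower at -1.28 (-2.45 to -0.06). The median of 18 interferon response genes was 0.58, and 15 of them lay above 0, among them Isg15 with 3 and 42 UMIs. The exceptions included Ifi27l2a, at 3463 and 3005 CPM and -0.20 (-0.44 to 0.03), and Ly6a, the Sca-1 antigen, with 12 and 13 UMIs and -1.88 (-3.13 to -0.62). Ly6a went the other way in mature CD8 cells, at 1.26 (0.13 to 2.53). Summed, the interferon list was at 5068 CPM in wild type and 5281 CPM in mutant mature CD4 cells. The other classes were higher in the mutant library by more: 3555 and 4498 CPM in mature CD8 cells and 4378 and 5105 in cells with neither coreceptor. Positively selected cells were at 996 and 1815 CPM, and resting double-positive cells at 580.3 and 1092. A higher interferon list was thus not particular to the mature CD4 cells.

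Several genes lower in the mutant cells drew most of their wild type UMIs from a pair of deep cells, with 8810 and 8178 UMIs. S100a6, a calcium-binding protein, had 20 UMIs in wild type, all in the cell with 8178 UMIs, and 0 in mutant. S100a11, of the same family, had 17 and 13 UMIs, or -2.38 (-3.54 to -1.25) in log2, and 7 and 6 of the 17 were in these cells. Lgals1, which encodes galectin-1, had 46 and 76 UMIs, or -1.27 (-1.82 to -0.71) in log2, and 28 and 10 of the 46 were in them. Without the cells of over 6000 UMIs, Lgals1 was at 0.91, with 5 CPM added, and S100a11 at -0.81. Ly6e, a surface protein, had 49 and 71 UMIs, or -1.46 (-2.01 to -0.90) in log2, with 19 and 8 of the 49 in these cells. Cd52, a short glycoprotein of the lymphocyte surface, kept its direction without them: it had 258 and 697 UMIs, 4653 and 3154 CPM, or -0.56 (-0.77 to -0.35) in log2, and -0.42 with 5 CPM added without the deep cells. Akr1c18, a steroid dehydrogenase, was the highest ranked gene in mutant, and 45 of its 47 UMIs were in 1 cell.

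Myc, the target of the mutated enhancer, had 0 UMIs in the wild type mature CD4 cells, which allows up to 54.1 CPM (3 UMIs), and 11 UMIs in 8 mutant cells, 49.8 CPM. The difference was not detectable at this depth. Mature CD8 cells were at 18.0 and 19.2 CPM and positively selected cells at 44.8 and 39.5 CPM of Myc. Gata3 had a log2 ratio of 1.81 (-0.90 to 7.21) between the libraries, an interval that included 0. Cap1, which encodes a cyclase-associated actin regulator, was at 18.0 CPM (1 UMI) and 145 CPM (32 UMIs), or 3.01 (0.42 to 8.35) in log2, and it was higher in the mutant library in every class, at 1.48 (0.44 to 2.66) in mature CD8 cells, 1.62 (0.47 to 2.95) in positively selected cells and 2.03 (1.23 to 2.91) in resting double-positive cells. The difference in Cap1 was thus not particular to the mature CD4 cells. The 15 measured genes of MYC-driven ribosome biogenesis and growth had a median of -0.22, with 7 above 0 and 8 below, beside 44.9% of all genes above 0.

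**Figure D5:**
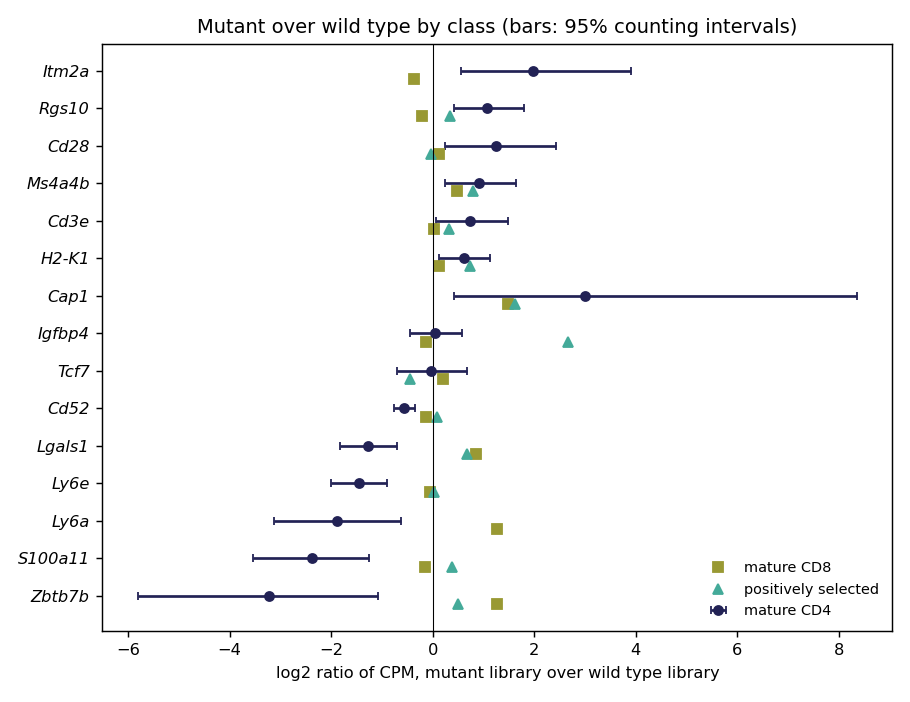
Log2 ratio of CPM, mutant over wild type library, for 15 genes in mature CD4 cells (circles with 95% exact conditional intervals), mature CD8 cells (squares) and positively selected cells (triangles; not drawn for Itm2a, which cuts that class, nor for Ly6a, at 0 UMIs in wild type). Rgs10 and Cd28 lie at 1.07 and 1.24 in mature CD4 cells and near 0 in CD8 cells, Zbtb7b lies at -3.22 against 1.26, and Cap1 is above 0 in all 3 classes.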

How the data were processed

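The authors deposited 1 table per library with raw UMI counts per gene symbol and cell barcode, as whole numbers for 27933 genes. Thymocytes were loaded at 5000 cells per sample on a 10x Chromium instrument with the 3′ v2 chemistry, per the labels' protocols, and the tables held 26.92% and 34.74% of these numbers. The submitters' processing notes name Cell Ranger and the build mm10; the version and the rule that called cells are not given in the sources used here.

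Barcodes with at least 400 genes and at most 10% mitochondrial UMIs were kept; 5 barcodes of the wild type and 6 of the mutant library failed. No doublets were removed; an alternative left out the 5% of mature CD4 cells with the highest Scrublet scores (expected rate 4%), which were 0 wild type and 4 mutant cells. Other classes used the same exclusions as the mature CD4 cells. UMIs were summed per class and library and divided by the class total. A single gene's log2 ratio was taken on CPM as they are, with an exact conditional interval; ranks, counts past 2-fold and medians have 5 CPM added. Genes were tested with at least 50 CPM on at least 1 side, without the 21 genes of the rule and, for a class, the genes that cut it.

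Named genes had at least 20 UMIs over all sides: the 12 highest and 12 lowest between libraries, the 10 highest and 10 lowest against each class by the smaller ratio of the libraries, and the 6 highest and 6 lowest of the S1pr1 split, without mitochondrial, ribosomal protein, sex-linked, haemoglobin, receptor segment and unnamed genes. Members of the lineage, maturity, homing, cytokine and class I lists were eligible as well, as were the 2 highest and 2 lowest of the other lists. Some outside this rule, such as Lck, Bcl2, Id2, Bach2, Cd3e and Lgals1, were chosen after their values were seen. The cells and the 26 gene lists were chosen with earlier results of these data known. Methods were tested on simulated data. There, 2072 genes had equal levels in the mature CD4 cells of both libraries, and 15.9% of them lay past 2-fold. Against resting double-positive cells in the mutant library the value was 1.96% of 2709 genes. How many of the measured genes past 2-fold come from counting error alone was not tested. Python tools were numpy 2.4.6, scipy 1.17.1, pandas 2.3.3, scanpy 1.11.5 and matplotlib 3.10.9. Some results are not reported here.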

Additional observations from a re-analysis of the deposited data

How the results depend on the processing

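No paired analysis was possible because each genotype has 1 library. The mutant share of mature CD4 cells was above the wild type share in every setting tried. With 1 Cd8a or Cd8b1 UMI allowed, the shares were 1.94% and 4.56%, and 208 genes were lower past 2-fold between libraries. With cells picked after thinning to 1500 UMIs, the mutant share was 1.90%, the difference 1.15 points, and 622 genes were higher and 724 lower. Added after seeing the data, no condition on Cd4 gave 3.58% and 8.78%, a difference of 5.20 points, and shares of the mature cells 13.8% and 25.2%, a difference of 11.4 points.

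Counts past 2-fold moved most. Each cell thinned to 1500 UMIs gave 615 higher between libraries, 147 higher and 200 lower against mature CD8 cells, and 147 and 396 against positively selected cells. The mean over cells gave 433 higher between libraries, and 59 and 85 against CD8 cells; median-of-ratios size factors gave 455 higher. Without ribosomal protein and mitochondrial genes in the totals, 728 were higher and 800 lower between libraries, 127 and 164 against CD8 cells, 461 higher than in double-positive and 216 higher than in positively selected cells. With 20 CPM added, 264 were lower between libraries, 7 higher and 11 lower against CD8, 143 and 473 against double-positive, and 59 and 110 against positively selected cells. A minimum of 100 CPM gave 77 and 119 between libraries, and 6 and 9, 122 and 420, and 46 and 96 against these classes in turn. No minimum gave 2381 higher and 1468 lower between libraries, so that the balance turned. A maturity sum of at least 3 gave 66 lower than in CD8 cells. Without cells of over 6000 UMIs, a setting added after seeing the data, 492 were higher and 788 lower between libraries, 84 and 65 against CD8 cells, 258 and 736 against double-positive cells, 125 and 254 against positively selected cells, and 175 and 360 in the S1pr1 split. Fewer genes or cells tested are part of the stricter settings; the cause of the other moves was not tested.

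Between the libraries, log2 ratios with 5 CPM added reversed for Capg (1.32 thinned, 3.93 picked after thinning, 3.76 without deep cells), Lgals1 (0.47 picked after thinning, 0.91 without deep cells), and, picked after thinning, Itm2a (-0.96), Gata3 (-0.61), Pbrm1 (-0.78), Emb (-0.21) and Tap1 (0.32). The median of the MAPK feedback list, -2.00 over only 2 measured genes, turned to 0.21 with no minimum and 0.51 without deep cells. In wild type, Plac8 over CD8 cells was at 0.10 when thinned, and Runx3 over double-positive cells at -1.72 when thinned and -2.13 without deep cells. Of 774 values of single genes against positively selected cells, 767 stayed within the counting interval and 0 reversed. The interferon list median ran from 0.19 to 0.75, the class I list from 0.12 to 0.58. Depth limits the wild type side: 3 UMIs in its 16 cells are 54.1 CPM, against 13.6 CPM in the mutant cells.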
